A study of Danio rerio with 20 samples.

Results

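The proteasome genes of the zebrafish were followed across the blood cells of embryos and larvae treated with an inhibitor of phosphatidylinositol-3 kinase (PI3K) and of their controls. The members were all genes whose symbol starts with psma, psmb, psmc, psmd, psme, psmf or psmg followed by a digit, whether written in lower case (48 genes) or in capitals (PSMB10 and PSMG4), which gave 50 of 26651 gene IDs. They were matched by Ensembl ID in all 20 plates, and 45 of them were listed in every plate. The other 5 were psmb5 (18 plates), psmb12 (19), psmb8a (15), psmb9a (10) and the row named psmb10 (13). That row has the ID of the gene called psmb13a in the RefSeq annotation and is called psmb13a here, since PSMB10 in capitals is another gene. psmc3ip was caught by the rule but encodes a partner of the meiotic recombination machinery and not a subunit.

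The proteasome degrades proteins that carry ubiquitin chains. Its 20S core is a barrel of alpha rings (psma genes) around beta rings (psmb genes), and the beta subunits psmb5, psmb6 and psmb7 carry the cutting sites. The 19S cap unfolds the substrate with its ring of ATPases (psmc genes), and its other subunits (psmd genes) bind and remove ubiquitin. In mammals, interferon and blood cell identity replace the cutting subunits by psmb8, psmb9 and psmb10, which makes the immunoproteasome, and bring in the activator PA28 (psme1 and psme2), which together favour peptides for MHC class I. PA200 (psme4) is another activator, psmf1 binds the core as a regulator, and the psmg genes and psmd5, psmd9 and psmd10 help to assemble core and cap.

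Cells were sorted from dissected and pooled tg(kdrl:mCherry-CAAX/cd41:eGFP) animals, all carrying both transgenes, by mCherry and low eGFP signal. In these fish the kdrl promoter marks endothelial cells and the cd41 promoter marks stem cells and thrombocytes, so that other blood cells were measured only as far as they passed this gate. From the aorta-gonad-mesonephros (AGM) at 36 hpf, 4 plates held control embryos (C1 to C4, labelled wildtype and given DMSO by the methods of the study), 5 held embryos treated with the PI3K inhibitor LY294002 (L1 to L5) and 3 held both treatments (X1 to X3, used only for comparisons between cell classes). From the caudal hematopoietic tissue (CHT) at 5 dpf, 2 plates each held control (W1, W2) and LY294002-treated larvae (V1, V2). The methods of the study describe an early treatment and a late one that ended before 5 dpf. They do not say which was given to the larvae sorted from the CHT. Exposure may thus differ between AGM and CHT, and PI3K activity was not measured in the sorted cells. The other 4 plates enter only the counts of plates and cells and the levels over all cells. Plates were the replicates, and nothing in the labels says that the plates of a group came from separate pools of embryos, so that p-values measure the spread between plates, which may be technical.

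Wells with at least 1500 unique molecular identifiers (UMIs, which count transcripts) were taken as cells, 6116 in all, on plates of 122 to 378 cells and 1837137 to 8298215 UMIs. No well held the same values as another well, although all plates use the same 384 cell barcodes. Each tissue was clustered without the member genes, and clusters were named by markers. In the AGM, HSPC-like cells (1324, hematopoietic stem and progenitor cells) had 15 of 16 markers raised, neutrophil-like cells (1015) 10 of 10 and monocyte-like cells (692) 9 of 9. EHT-like cells (358) had 12 of 12 raised and are named after the study's markers of endothelial-to-hematopoietic transition (EHT). That cluster was led by krt18, krt8 and the endothelial gene cdh5, and endothelial cells outside the transition were not told apart from cells in it. In the CHT, HSPC-like cells (296) had 14 of 16 markers raised, but rhag, an erythrocyte marker, led that cluster. Its erythrocyte-like cells (416) had 6 of 6 and its myeloid-like cells (251) 9 of 9 markers raised, and clusters of 327 cells of the AGM and 40 cells of the CHT, led by skin keratins, were left unnamed. The classes were built from other genes of the same cells, and p-values between classes are to be read with that limit.

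The 50 members held 363950 of 76929864 UMIs, which is 0.473%, and 0.3088% to 0.5979% on single plates. One UMI marks the 3′ end of 1 transcript, so levels as CPM (counts of UMIs brought to the same total in every sample) were compared between genes without correction for length. Over all cells, psmb7 was the most abundant member at 367.9 CPM, followed by the ATPase gene psmc6 (333.3) and the alpha ring gene psma8 (238.0). The 10 most abundant members took 48.4% of the member UMIs, 21 members reached 100 CPM, and 7 stayed under 10 CPM. The most abundant members of the other groups were psmd14, which encodes the deubiquitinase of the cap (195.5), psmg1 (40.9), psme4b (39.0), PSMB10 (22.8), psmd9 (22.2) and psmf1 (10.7). psmb5 was listed at 1.51 CPM, far below psmb6 (164.2) and psmb7, although its product is part of the same beta rings of the core as theirs. What this low level rests on was not tested. Copies of a gene (psma6a, psma6b and psma6l, psmc1a and psmc1b, psmd11a and psmd11b, psme4a and psme4b) are alike in sequence, so that reads could be split between them in the counting.

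Large differences among the members were found between cell classes of the AGM, and 4 genes carried many of them. psma6l (a psma6-like alpha ring gene), PSMB10 (an immunoproteasome beta subunit) and psme1 and psme2 (PA28) were high in HSPC-like cells and low in monocyte-like, neutrophil-like and EHT-like cells. psma6l ran from 18.6 over a median of 32.7 to 54.8 CPM on the 12 HSPC-like plates. It lay at 0 to 6.40 CPM (median 1.09) in monocyte-like, at 0 to 4.80 (3.11) in neutrophil-like and at 0 to 15.6 (4.25) in EHT-like cells. Every HSPC-like plate was above every plate of the other classes. psme1 ran from 37.2 over 69.4 to 109.6 CPM in HSPC-like cells. It lay at 0 to 12.2 (median 6.98), 0.645 to 9.68 (2.79) and 0 to 10.4 (4.59) CPM in monocyte-like, neutrophil-like and EHT-like cells, again with no overlap. PSMB10 ran from 25.7 over 53.8 to 83.5 CPM in HSPC-like cells. It lay at 1.71 to 14.8 (median 7.16) and 2.58 to 9.92 (5.19) CPM in monocyte-like and neutrophil-like cells without overlap, whereas EHT-like cells reached 30.9 CPM (median 9.91), so that 11 of 12 HSPC-like plates were above them. psme2 was lower throughout, from 3.67 over 16.1 to 34.6 CPM in HSPC-like cells, against medians of 7.99, 3.17 and 0.708 CPM in the other classes, and overlapped with all of them. In EHT-like cells the levels of all 4 genes rested on few UMIs per plate, so that their size and their fold changes there are imprecise.

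**Figure D1:**
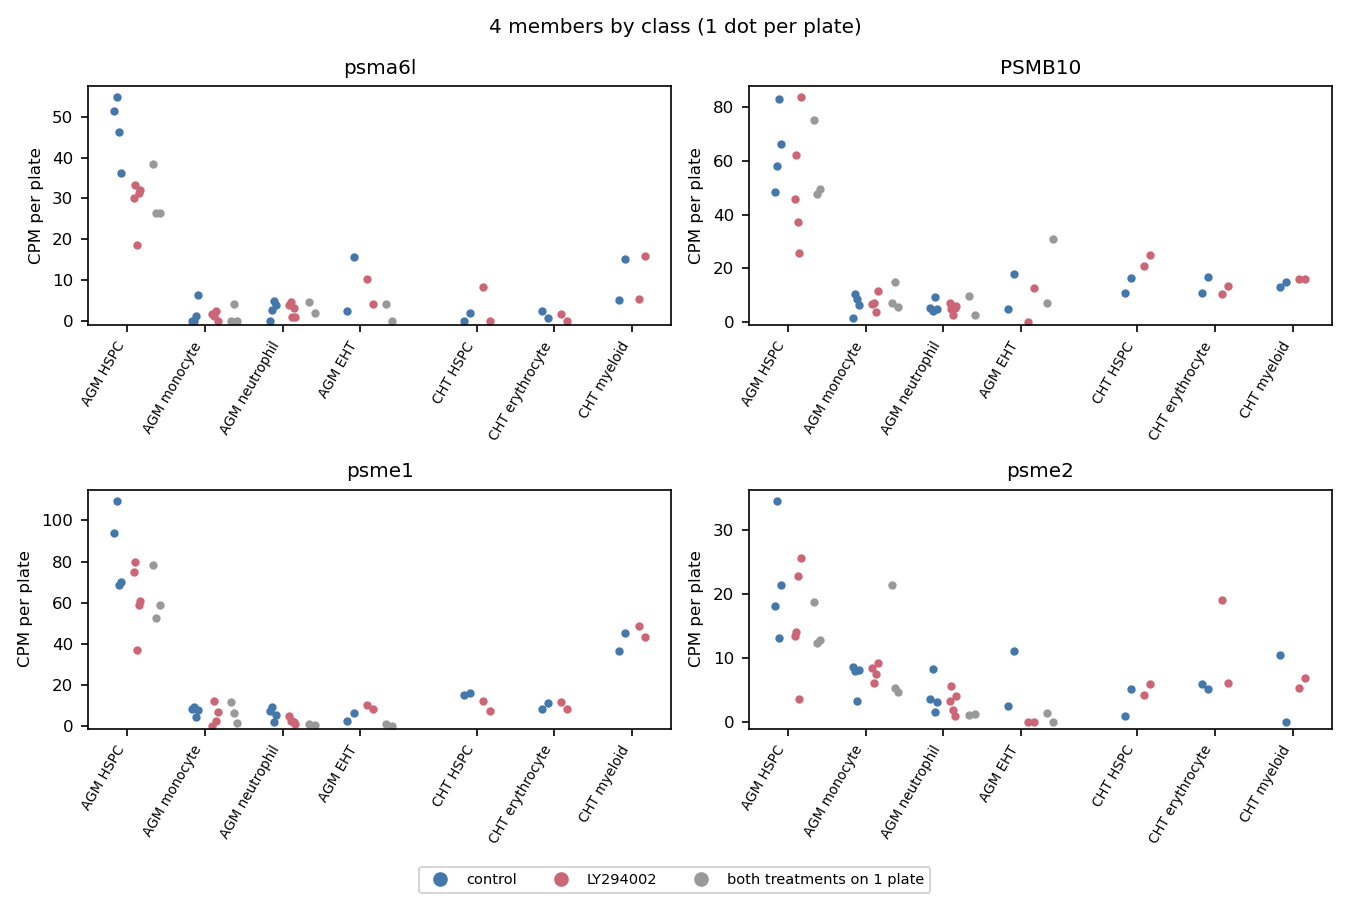
CPM (y axis) of psma6l, PSMB10, psme1 and psme2 in each class of cells (x axis), 1 dot per plate with at least 20 cells of the class, colored by treatment. The 12 HSPC-like plates of the AGM lay above all other plates for psma6l, and for PSMB10 only 1 EHT-like plate (30.9 CPM) was above the lowest of them (25.7 CPM). For psme1 only myeloid-like plates of the CHT overlapped with them.

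In edgeR's quasi-likelihood test with Benjamini-Hochberg adjustment and the plate as a block, psme1 differed from HSPC-like cells by a log2 fold change of -3.16 (SE 0.22, adjusted p = 4.18e-10) in monocyte-like cells and was lower in 11 of 11 plates. In neutrophil-like cells its log2 fold change was -3.77 (SE 0.21, adjusted p = 2.7e-13, lower in 11 of 11 plates), and in EHT-like cells -4.24 (SE 0.37, adjusted p = 2.25e-07, 6 of 6 plates). psma6l changed by -3.88 (SE 0.40, adjusted p = 1.01e-07), -2.79 (SE 0.25, adjusted p = 1.04e-09) and -2.66 (SE 0.41, adjusted p = 6.48e-05) on the log2 scale in the same order by the same edgeR test. PSMB10 was lower by similar amounts in all 3 classes, with log2 fold changes of -2.49 (SE 0.21), -2.63 (SE 0.18) and -2.38 (SE 0.38) and adjusted p between 1.87e-11 and 8.47e-05 (edgeR). psme2 changed by -0.80 (SE 0.26, adjusted p = 0.00929) in monocyte-like, -1.88 (SE 0.25, adjusted p = 7.36e-07) in neutrophil-like and -2.74 (SE 0.54, adjusted p = 0.000544) in EHT-like cells (edgeR). The fall was not confined to these activator genes. psme3, another activator gene, was also called lower in neutrophil-like (log2 fold change -1.45) and EHT-like cells (-1.68), but was not called in monocyte-like cells.

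The other immunoproteasome beta genes were near the limit of counting. psmb8a, psmb9a and psmb13a gave 47, 18 and 29 UMIs over all cells, and none passed the filter on low counts in any comparison. psmb12 gave 105 UMIs, of which 73 lay in HSPC-like cells of the AGM, where it was found on 11 of 12 plates (0 to 7.07 CPM, median 3.39). It gave 0 UMIs in EHT-like, 1 in monocyte-like and 3 in neutrophil-like cells of the AGM, and 4 in myeloid-like cells of the CHT (up to 7.52 CPM). psmb8a gave 17 UMIs in HSPC-like cells of the AGM and 6 in myeloid-like cells of the CHT. Relative to all UMIs it was lower in the former, at 0 to 1.89 CPM against 2.28 to 5.40 CPM, and this difference was not tested. In the RefSeq assembly GRCz12tu, psmb13a, psmb8a, psmb12 and psmb9a lie next to each other between mhc1uba and tap2a, whereas PSMB10, psme1, psme2 and psma6l lie elsewhere.

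Of 20 antigen presentation genes listed beside the members, 19 were found, and they moved in both directions. b2m, the light chain of MHC class I, was at 122.7 ± 40.1 CPM (SD, n = 11) in HSPC-like against 7.93 ± 3.65 CPM in monocyte-like cells (log2 fold change -3.50, SE 0.19, adjusted p = 8.17e-12 by edgeR). The peptide-loading factors tapbpl, at -2.35, and tapbp.1, at -1.03, and the peptide transporter tap1, at -0.64, were also lower there on the log2 scale, while b2ml (0.91), mhc1zba (0.58), stat1a (0.71) and irf8 (6.58) were higher, so that 4 of the 10 tested rose and 4 fell. In neutrophil-like cells 2 of 10 rose and 3 fell, with b2m at a log2 fold change of -3.94 and the interferon signal transducer stat1a at 1.63. In EHT-like cells 1 of 9 rose (stat1a, 1.69) and 5 fell, among them b2m at -1.94 and tapbp.1 at -2.50. Of all genes tested, 32.1% rose and 38.7% fell in monocyte-like, 31.4% and 36.5% in neutrophil-like and 24.1% and 24.6% in EHT-like cells, so that nothing particular to the list is read from these counts.

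Over the whole list, more members were lower than higher in each of these classes. In monocyte-like cells 26 of 45 members tested passed the threshold of an adjusted p under 0.05, 24 of them lower, where 70.8% of all 11096 genes tested were called (38.7% lower and 32.1% higher), and the median log2 fold change of the members was -0.199 beside -0.199 for all genes. In neutrophil-like cells 24 of 45 were called, 19 lower and 5 higher, where 67.9% of 12315 genes were called (36.5% lower and 31.4% higher), and the medians were -0.110 and -0.150. The split in neutrophil-like cells was 26 lower and 3 higher with RLE factors and 42 lower and 2 higher without composition factors. Of all 12315 genes, 8604 and 9488 were then called in either direction. The members as a list thus lay near the median gene in both classes. The base chaperone psmd10 was lower in both, at a log2 fold change of -1.66 (SE 0.21, adjusted p = 1.29e-06) in monocyte-like and -1.19 (SE 0.20, adjusted p = 1.72e-05) in neutrophil-like cells (edgeR). The PA200 gene psme4b was higher in both. In monocyte-like cells it went from 38.3 ± 4.42 to 54.7 ± 14.2 CPM (SD, n = 11, higher in 10 of 11 plates), a log2 fold change of 0.81 (SE 0.14, adjusted p = 3.91e-05 by edgeR). In neutrophil-like cells it went from 38.7 ± 4.50 to 46.9 ± 9.82 CPM (SD, n = 11, higher in 9 of 11 plates), a log2 fold change of 0.85 (SE 0.12, adjusted p = 1.7e-06 by edgeR). These log2 fold changes include composition factors and the CPM do not. psme4a, the second PA200 gene, was called in opposite directions, at -1.07 in monocyte-like (adjusted p = 0.0491) and 1.29 in neutrophil-like cells (adjusted p = 0.000594, edgeR), from levels of about 7.40 and 7.01 CPM in HSPC-like cells. The 20S chaperones psmg1, psmg2 and PSMG4 were all lower in neutrophil-like cells, at log2 fold changes of -0.61, -0.43 and -0.95. psmd11a and psmd11b, lid subunits of the cap, were at log2 fold changes of 0.33 and 0.58 in neutrophil-like cells, but at -0.26 and -0.01 when no composition factors were used.

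EHT-like cells stood apart. There 33 of 45 members were called lower and none higher, where 48.7% of 10899 genes were called (24.6% lower), and the median log2 fold change was -0.765 for the members and 0.004 for all genes. All 8 alpha ring genes, all 6 constitutive beta genes tested and 6 of 7 ATPase genes were called lower. All 7 ATPase genes were below 0. psmb7 went from 471.6 ± 85.9 to 318.7 ± 44.8 CPM (SD, n = 6; lower in 6 of 6 plates), a log2 fold change of -0.66 (SE 0.15, adjusted p = 0.00166 by edgeR). psmc6 went from 370.1 ± 63.9 to 232.1 ± 69.5 CPM (log2 fold change -0.80, SE 0.17, adjusted p = 0.00108) and psma8 from 352.1 ± 56.1 to 192.9 ± 33.6 CPM (-0.97, SE 0.16, adjusted p = 0.000139), both in edgeR's test. Their plates did not overlap, and over the list 20 of 45 members were lower without overlap (44.4%, beside 13.2% of all genes). PSMG4 fell most among the chaperones, by 1.67 on the log2 scale. EHT-like cells were the shallowest of the named classes of the AGM, with a median of 6324 UMIs per cell against 11798 in HSPC-like cells, and the part of depth in the difference was not tested.

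The summed share of the members gives the same classes on the scale of all UMIs. It lay at 0.556% to 0.727% (median 0.656%) in HSPC-like cells, 0.364% to 0.532% (0.448%) in monocyte-like and 0.325% to 0.459% (0.415%) in neutrophil-like cells of the same 11 plates. On the 6 plates with EHT-like cells it lay at 0.584% to 0.702% in HSPC-like and 0.356% to 0.465% in EHT-like cells. The range of each class lay below that of HSPC-like cells without overlap, and on every plate the share was lower than in HSPC-like cells. On the scale of total UMIs the median of all genes tested was itself shifted, by -0.52 in monocyte-like and -0.72 in neutrophil-like cells but by 0.10 in EHT-like cells on the log2 scale, so that only in EHT-like cells did the summed share and the median gene move apart.

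**Figure D2:**
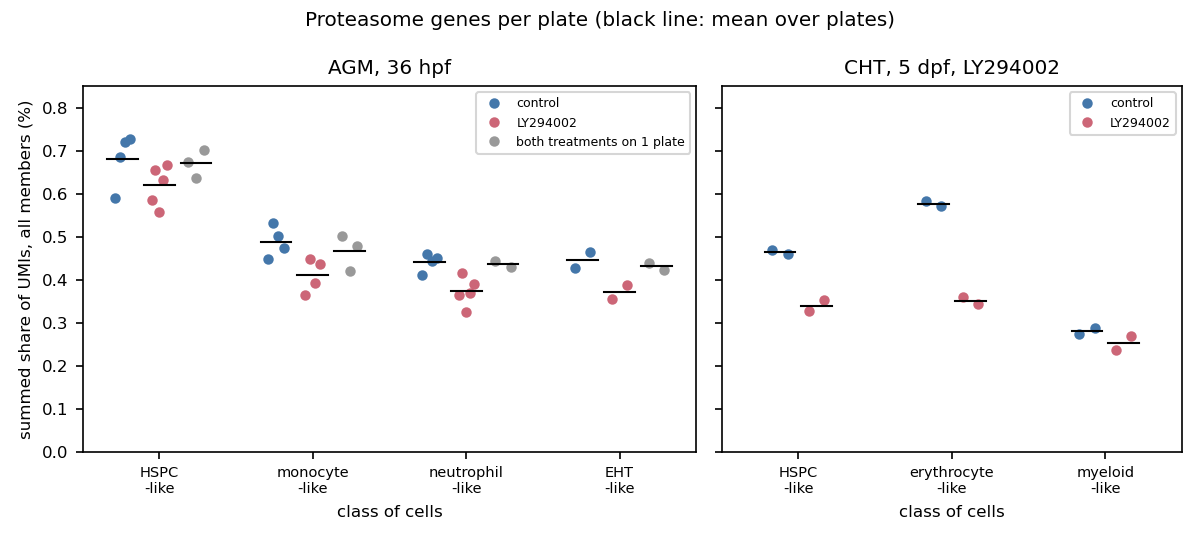
Share of all UMIs held by the 50 members together (y axis, %) in each class of cells (x axis), 1 dot per plate with at least 20 cells of the class and a black line at the mean over plates. HSPC-like cells of the AGM had the highest means, with plates from 0.556% to 0.727%. In erythrocyte-like cells of the CHT the control plates (0.582% and 0.572%) lay within that range and well above the LY294002 plates (0.360% and 0.342%).

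Among 31 further genes of the ubiquitin-proteasome pathway, of which 26 symbols were found, the transcription factor gene nfe2l2a was higher than in HSPC-like cells in every class of the AGM, at log2 fold changes of 2.11 in monocyte-like, 1.84 in neutrophil-like and 0.97 in EHT-like cells. In all, 9 of 23 genes tested were higher and 5 lower in monocyte-like, 12 higher and 2 lower in neutrophil-like, and 3 higher and 9 lower in EHT-like cells. Of all genes tested, 32.1% were higher and 38.7% lower in monocyte-like, 31.4% and 36.5% in neutrophil-like, and 24.1% and 24.6% in EHT-like cells. The ubiquitin-activating enzyme uba1 fell from 386.9 ± 65.4 to 185.9 ± 36.5 CPM (SD, n = 6) in EHT-like cells (log2 fold change -1.18, SE 0.14, adjusted p = 5.34e-06 by edgeR), and usp14, a deubiquitinase of the cap, and pomp, which matures the core, were lower by 0.95 and 0.58 there.

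Between the stages, the same 4 genes differed in HSPC-like cells. On the control plates psma6l was at 51.5, 54.8, 46.4 and 36.2 CPM in the AGM and at 0 and 2.04 CPM in the CHT, where it rested on 2 UMIs against 343. The ratio of AGM to CHT was 48.8 (95% exact interval 13.4 to 405.0, for counting error only), and edgeR's log2 fold change was -5.05 (SE 0.62, adjusted p = 0.000704). psme1 was at 93.9, 109.6, 68.9 and 69.9 CPM in the AGM and at 15.2 and 16.3 CPM in the CHT (log2 fold change -1.95, SE 0.30, adjusted p = 0.00225 by edgeR). PSMB10 was at 48.5, 58.1, 82.9 and 66.1 against 10.7 and 16.3 CPM (-1.77, SE 0.30, adjusted p = 0.00358). psme2 was at 18.2, 34.6, 13.1 and 21.4 against 0.895 and 5.11 CPM (-2.42, SE 0.69, adjusted p = 0.0301). It rested on 6 UMIs in the CHT against 165, a ratio of 7.83 (95% exact interval 3.52 to 21.7, for counting error only). The CHT plates lay below all AGM plates for each of the 4 genes, but so they did for 30 of the 45 members tested (66.7%). The share of all genes without overlap is not given here, so nothing particular to the 4 genes is read from this.

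In all, 6 of 45 members were called between the stages, 5 lower and 1 higher in the CHT (edgeR, adjusted p under 0.05), where 29.7% of 10170 genes were called (14.6% lower and 15.1% higher), and the median of the members (-0.034) was close to that of all genes (-0.011). The other members called were psma6a, at 124 ± 8.19 against 63.5 ± 1.21 CPM (log2 fold change -0.48, SE 0.15, adjusted p = 0.0479), and the base chaperone psmd9, at 25.9 ± 2.02 against 31.8 ± 7.02 CPM (SD, n = 4 and 2; 0.78, SE 0.23, adjusted p = 0.0351). psmb7, psmc6, psma8, psmd14, psmg1, psme4b and psmf1 did not pass, with log2 fold changes between -0.52 and 0.44. The call of psmd9 was lost whichever plate was left out, with DESeq2, with no filter and without composition factors. Without composition factors 21 members were lower and 0 higher, where 3573 of 10170 genes were called in either direction. Without control plate W1 only 2 members were called, and psme2 and PSMB10 were not among them. The summed share was 0.680% ± 0.063 (SD, n = 4) in the AGM and 0.464% ± 0.007 (n = 2) in the CHT without overlap, but without composition factors all genes had a median log2 fold change of -0.50 and the members one of -0.52. b2m was lower as well, from 123.9 ± 22.9 to 7.85 ± 4.78 CPM (log2 fold change -3.51, SE 0.38, adjusted p = 0.00036 by edgeR), and stat1a was higher by 1.67 on the log2 scale. Of the 9 antigen presentation genes tested, 1 was called higher and 3 lower, beside 15.1% and 14.6% of all genes. Muscle transcripts took 5.74% and 1.58% of UMIs in HSPC-like cells on W1 and W2 against 0.0029% to 0.0128% on C1 to C4, globin 0.827% and 0.728% against 0.0075% to 0.145%, and AC024175.4, a mitochondrial ribosomal transcript, 5.81% and 6.62% against 0.950% to 3.48%. Their part in these differences was not tested gene by gene. Stage cannot be told apart from tissue, sort day, the separate clustering of the data sets and the make-up of the HSPC-like class. In the CHT that class was led by rhag, an erythrocyte marker. With 3000 UMIs, 7 clusters or the members in the clustering, no class there was named HSPC-like. A cluster led by rhag then scored best for thrombocyte/erythrocyte markers (8 of 8 raised).

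psme1 lay at 36.6 and 45.1 CPM (W) and 48.6 and 43.3 CPM (V) in myeloid-like cells and at 15.2 and 16.3 CPM (W) and 12.6 and 7.38 CPM (V) in HSPC-like cells, without overlap. psma6l lay at 5.23 to 16.0 CPM in myeloid-like and at 0 to 8.39 CPM in HSPC-like cells, PSMB10 at 13.1 to 16.2 against 10.7 to 25.1 CPM and psme2 at 0 to 10.5 against 0.895 to 5.90 CPM, and these 3 genes overlapped. These differences between classes of the CHT were not tested.

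Erythrocyte-like cells of the CHT had higher levels than HSPC-like cells for 12 of 42 members and lower levels for none (edgeR, adjusted p under 0.05), where 15.5% of 7302 genes were higher and 32.8% called in either direction, with medians of 0.277 for the members and 0.008 for all genes. psma6a went from 50.8 ± 14.7 to 79.2 ± 26.2 CPM (SD, n = 4; higher in 4 of 4 plates), a log2 fold change of 0.68 (SE 0.16, adjusted p = 0.00157). psmf1 changed by 1.05 (SE 0.39, adjusted p = 0.0351), psme4b by 0.72 (SE 0.20, adjusted p = 0.00631) and psmc3ip by 0.73 (SE 0.28, adjusted p = 0.0448) in the same edgeR test. DESeq2 called none of the 42, beside 1190 of 7302 genes. The summed share was higher in erythrocyte-like than in HSPC-like cells on the control plates (0.582% against 0.469% on W1 and 0.572% against 0.460% on W2) and close to it on the LY294002 plates (0.360% against 0.326% on V1 and 0.342% against 0.352% on V2). Leaving out 1 plate took the count to 6 (V1), 14 (V2), 10 (W1) and 5 (W2), the last with 4 members higher and 1 lower. Over all genes 2018 of 7376, 2041 of 7528, 2053 of 6423 and 1577 of 6469 were called in that order.

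In erythrocyte-like cells of the CHT, 4 members fell under LY294002. In controls psmc6 was at 561.7 and 482.1 CPM, and after LY294002 it was at 315.1 and 238.8 CPM, a log2 fold change of -0.71 (SE 0.15, adjusted p = 0.0213 by edgeR's quasi-likelihood test with Benjamini-Hochberg adjustment). psma5 was at 124.8 and 138.7 against 60.6 and 69.8 CPM (-0.79, SE 0.19, adjusted p = 0.0362). psma8 was at 230.1 and 240.2 against 133.2 and 123.7 CPM (-0.66, SE 0.16, adjusted p = 0.0366). The lid gene psmd12 was at 147.7 and 164.4 against 83.1 and 79.6 CPM (-0.73, SE 0.17, adjusted p = 0.0372). In each case both LY294002 plates lay far below both control plates. These were the 4 members called of 42 tested, all lower, where 1.88% of 6500 genes were called and 0.815% were lower.

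The members that did not pass the threshold lay on the same side. Of the 42, 40 were below 0 (48.8% of all genes), 25 had an unadjusted p under 0.05, all of them lower (17.4% of all genes in either direction), and 38 were lower without overlap of plates (90.5%, beside 39.2% of all genes). The median log2 fold change was -0.498 for the members and 0.013 for all genes. All 7 alpha, 6 constitutive beta, 7 ATPase and 10 other cap subunits tested were below 0, with medians of -0.59, -0.39, -0.45 and -0.59. psmb7, the most abundant member, was at 465.5 and 442.1 against 266.6 and 282.9 CPM, and psmd14 at 260.7 and 235.1 against 164.4 and 151.8 CPM, without passing. psmf1, at 20.4 and 16.0 against 10.4 and 9.80 CPM, lay lower too. PSMB10 overlapped, at 11.0 and 16.7 against 10.4 and 13.5 CPM, as did psme1, at 8.49 and 11.6 against 12.1 and 8.57 CPM. The members above 0 were psmc3ip, with a log2 fold change of 0.52, and psme1, with one of 0.20.

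**Figure D3:**
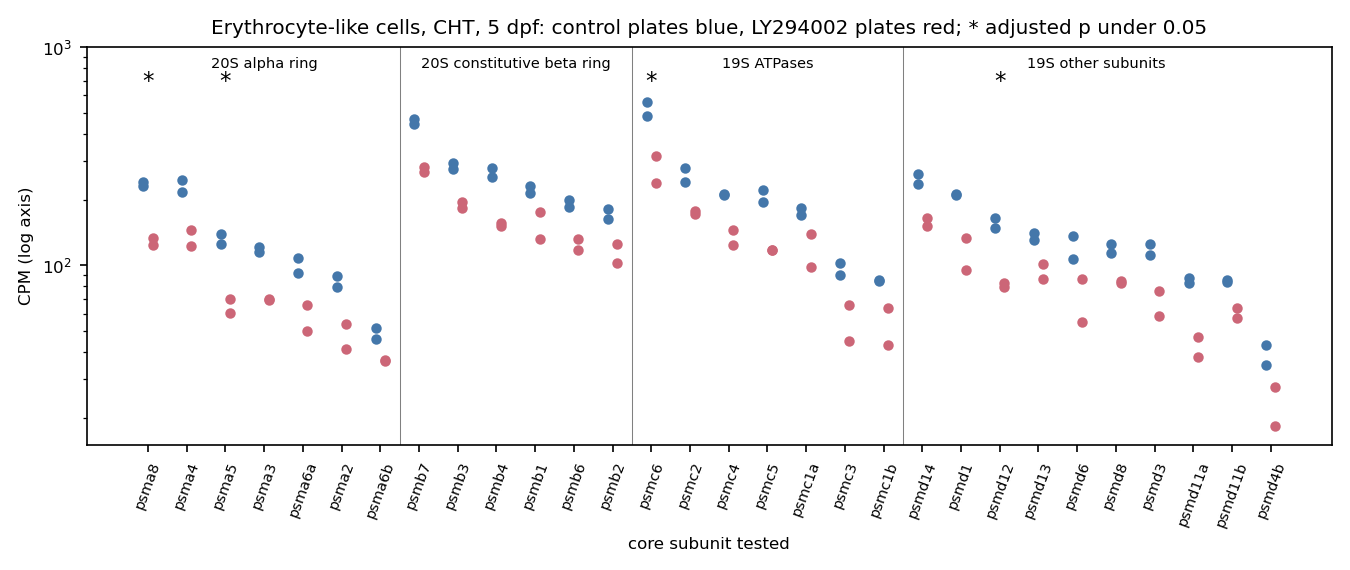
CPM (y axis, log scale) of each core proteasome subunit tested (x axis, grouped by role) in erythrocyte-like cells of the CHT at 5 dpf, with 2 control plates in blue and 2 LY294002 plates in red. The red dots lie below the blue dots for all alpha, beta, ATPase and other cap subunits shown, and the stars mark psma8, psma5, psmc6 and psmd12.

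The members together held 0.582% and 0.572% of UMIs in controls against 0.360% and 0.342% with LY294002, a ratio of 0.609. Other measures moved with it. Median UMIs per cell were 9388 and 10564 in controls against 6214 and 6840 with LY294002, globin transcripts took 6.20% and 6.87% against 7.88% and 8.58% of UMIs, and AC024175.4 took 5.09% and 4.67% against 7.51% and 6.06%. Among cells with under 5% globin the share was 0.613% and 0.613% against 0.420% and 0.382%, among those with 5 to 10% it was 0.581% and 0.552% against 0.333% and 0.326%, and above 10% it was 0.477% and 0.515% against 0.301% and 0.315%. In cells of 8000 to 16000 UMIs it was 0.612% and 0.579% against 0.353% and 0.375%. The control plates lay above the LY294002 plates in each of these bins, and within both groups the share was lower in cells with more globin. The part of AC024175.4 was not tested gene by gene.

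The calls depended on single plates and on the clustering. No member was called without control plate W1 and 1 without W2, whereas 10 were called without LY294002 plate V1. Without composition factors 19 members were called, all lower, with a median of -0.71 for the members and -0.20 for all genes. Of all 6500 genes, 307 were then called in either direction. vcp, the segregase that feeds ubiquitinated proteins to the proteasome, was also lower, with a log2 fold change of -0.80 (SE 0.15, adjusted p = 0.00875 by edgeR), and was the only one of 22 other pathway genes tested to be called.

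HSPC-like cells of the same plates had the same sign without a call. None of 41 members passed (edgeR, adjusted p under 0.05), where 0.0318% of 6288 genes did, 12 had an unadjusted p under 0.05, all lower (11.8% of all genes in either direction), 37 were below 0 (49.6% of all genes), 32 were lower without overlap of plates (78.0%, beside 29.7% of all genes) and the median was -0.399 beside 0.006 for all genes. The summed share was 0.469% and 0.460% against 0.326% and 0.352%, and muscle transcripts took 5.74% and 1.58% of UMIs on W1 and W2 and 0.692% and 0.085% on V1 and V2. PSMB10 went the other way, at 10.7 and 16.3 against 21.0 and 25.1 CPM (log2 fold change 0.87, SE 0.41, adjusted p = 0.454 by edgeR). In myeloid-like cells none of 33 members passed (0.0% of 4186 genes), and 2 had an unadjusted p under 0.05 (7.24% of all genes). The median there was 0.050 beside 0.028, and the summed share was 0.273% and 0.288% against 0.237% and 0.268%.

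A test of the difference between classes called no member. The effect of LY294002 in erythrocyte-like minus that in myeloid-like cells was below 0 for 34 of 39 members, with a median of -0.485 beside -0.036 for all genes. An unadjusted p under 0.05 was found for 7 of these members, beside 602 of 6377 genes tested, and the smallest adjusted p of a member was 0.1308 (edgeR). Against HSPC-like cells the smallest adjusted p was 0.719, with a median of -0.099.

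In the AGM no member was called in any class between LY294002 and control plates. In HSPC-like cells 40 of 45 members were below 0, 7 had an unadjusted p under 0.05 (12.0% of all genes did), and the median was -0.140 beside -0.012 for all genes (0.039% of 10260 genes called). In monocyte-like cells the median was -0.190 beside 0.008 (0.104% of 6760 genes called), with 28 of 38 members below 0, 3 at an unadjusted p under 0.05 (11.2% of all genes) and 3 lower without overlap (beside 4.05% of all genes). In neutrophil-like cells it was -0.198 beside -0.009 (0.0272% of 7357 genes called), with 32 of 38 members below 0, 5 at that level (8.1% of all genes) and 4 lower without overlap (beside 1.78%). In EHT-like cells it was -0.139 beside -0.020 (3.05% of 4822 genes called), with 23 of 32 members below 0, 2 at that level (16.7% of all genes) and 13 lower without overlap (beside 29.5%). psma6l in HSPC-like cells came closest, at 51.5, 54.8, 46.4 and 36.2 CPM on the control plates and 30.2, 33.3, 18.6, 31.2 and 32.1 CPM on the LY294002 plates, without overlap (log2 fold change -0.73, SE 0.20, adjusted p = 0.211 by edgeR). It and psmd14 were the only members without overlap there (2 of 45, 4.44%, beside 1.7% of all genes). psmd14 was at 296 ± 16.4 (SD, n = 4) against 225 ± 35.5 CPM (n = 5), with an adjusted p of 0.269 (edgeR).

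The summed share in HSPC-like cells was 0.590%, 0.685%, 0.720% and 0.727% on plates C1 to C4 and 0.584%, 0.656%, 0.556%, 0.632% and 0.666% on plates L1 to L5, and the groups overlapped. Within the earlier sort period (days 1 to 4) the log2 ratio was -0.04, and within the later period (days 10 to 12) it was -0.23. In the later period the control and LY294002 plates did not overlap in HSPC-like, monocyte-like or neutrophil-like cells, and in the earlier period they overlapped in all 3. The control plates were sorted on day 1 and the LY294002 plates on day 4 of the earlier period, and on days 10 to 11 and days 11 to 12 of the later one, so that treatment and sort day cannot be told apart in the AGM. Both periods were below 0 in monocyte-like (-0.27 and -0.23) and neutrophil-like cells (-0.16 and -0.31) too, and EHT-like cells, measured only in the earlier period, had -0.27. AC024175.4 took 0.950% to 3.48% of UMIs in HSPC-like cells of control plates and 2.52% to 9.26% on LY294002 plates. Its part in the lower member share was not tested on its own. It was left out only together with the other mitochondrially encoded genes, and the log2 ratio of the share then kept its sign. No member was called for a difference in its LY294002 effect between monocyte-like and HSPC-like or between neutrophil-like and HSPC-like cells (smallest adjusted p of 1 in both, edgeR). An unadjusted p under 0.05 was found for 0 of 44 and 3 of 45 members, beside 401 of 10157 and 546 of 11179 genes tested. Nor was any member called between the CHT and the AGM in HSPC-like cells, where the smallest adjusted p was 0.2267 (edgeR). There 34 of 45 differences were below 0, with a median of -0.213 beside -0.038 for all genes. An unadjusted p under 0.05 was found for 8 of these members, beside 822 of 10026 genes tested.

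**Figure D4:**
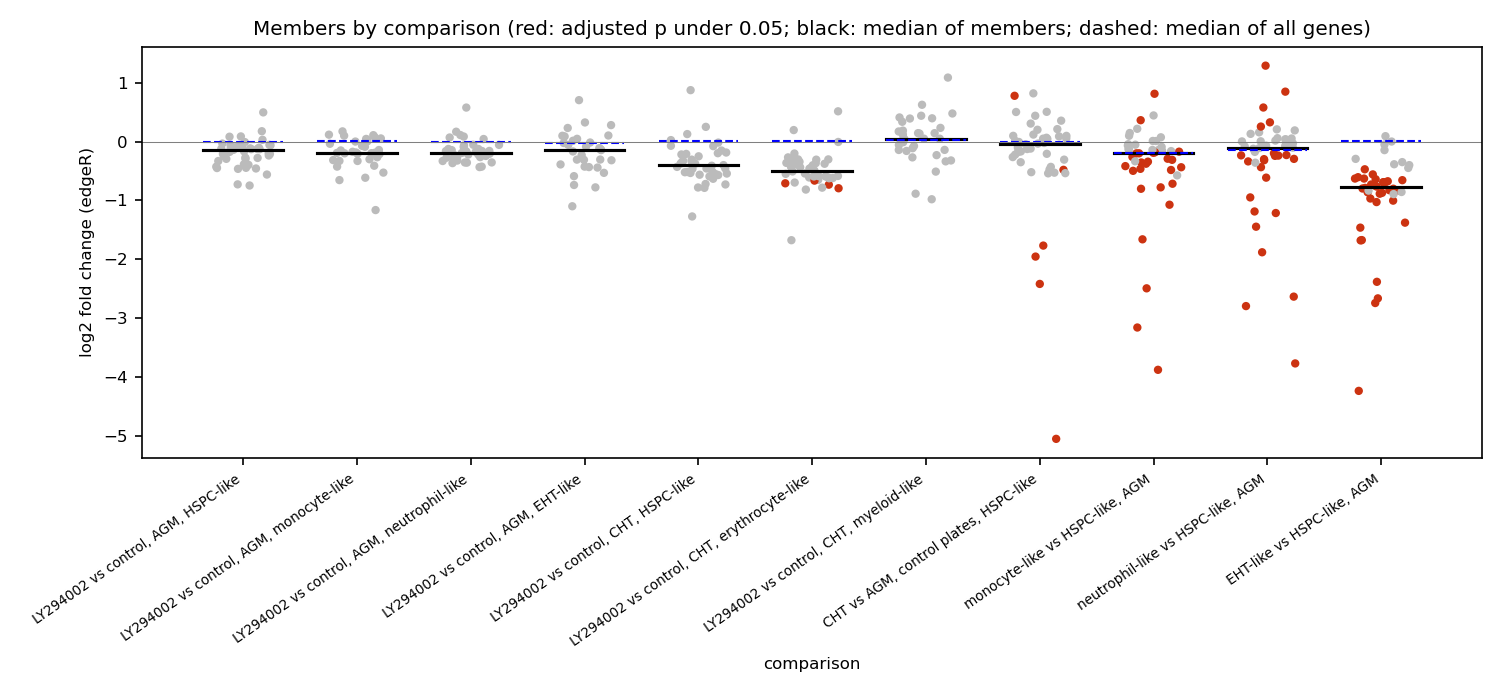
Log2 fold change (y axis, edgeR) of each member tested in 11 comparisons (x axis), with members of an adjusted p under 0.05 in red, the median of the members as a black line and the median of all genes tested as a dashed line. The members lay below all genes in EHT-like cells (-0.765 beside 0.004) and in LY294002-treated erythrocyte-like cells (-0.498 beside 0.013), and with the median of all genes in monocyte-like cells.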

How the data were processed

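Single cells were sorted into 384-well plates and sequenced by SORT-seq, a CEL-Seq2 protocol. The authors demultiplexed the reads, mapped them to the Zv9 transcriptome (BWA, per the submitters' processing notes), counted UMIs per gene and well and corrected for UMI collisions, and deposited these estimated counts without normalization. They were rounded after summing, and spike-in rows and rows without a gene ID were left out. A correction for collisions raises high counts slightly, and reads of alike copies can be split.

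Wells with at least 1500 UMIs were clustered per data set in Python 3.11.15 (numpy 2.4.6, pandas 2.3.3, scipy 1.17.1) by k-medoids (5 clusters) on 1 minus Pearson's r of variable genes (5 or more UMIs in 5 or more cells), without the members, 15 mitochondrially encoded genes and tmed1b. No doublet caller was used. All wells were used, with no treatment assigned to single wells of the plates of both treatments. For each plate, the cells of a class (20 or more) were added up and tested with edgeR 4.0.16 (limma 3.58.1, R 4.3.3; filterByExpr, TMM, glmQLFTest) over all genes, blocking on plate between classes and with a term for sort period where LY294002 was compared in the AGM. In EHT-like cells no such term was used, because the control and LY294002 plates with enough cells were all of the earlier period. SE is the absolute log2 fold change over the root of F. The script was tested on simulated data. Alternatives included DESeq2 1.42.0. Figures were drawn with matplotlib 3.10.9.

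Named were all immunoproteasome beta genes, psme1, psme2, the called members (at most 8, otherwise the 4 largest in each direction) and the most abundant member of each role. Others (psma6l in the CHT, psmb6, psme3, psmd10 and chaperones in neutrophil-like cells) and the comparisons of myeloid-like cells were chosen after values were seen. Members and lists were chosen with earlier results of these data known. Some comparisons are not reported here.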

Additional observations from a re-analysis of the deposited data

Results flagged for a closer look

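In 30 groups of 4 or 5 plates, psma6l, PSMB10, psme1, psme2 and the summed share were searched for a plate far from the others of its group, which chance alone finds in about 1 of 20 groups. The search found psma6l at 18.6 CPM on plate L3 in HSPC-like cells of LY294002-treated embryos of the AGM, below the other LY294002 plates. It also found psma6l at 6.4 CPM on plate C4 and psme2 at 3.27 CPM on plate C3 in monocyte-like cells of control embryos.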

How the results depend on the processing

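In erythrocyte-like cells under LY294002 in the CHT, the count of members called was 2 with a minimum of 1000 UMIs, 1 with 7 clusters, 0 with the members in the clustering, 0 without the 2% of wells with most UMIs, 1 with DESeq2, 10 with no filter and 19 by library size only. Among all genes, 66 of 6338 were called with 1000 UMIs and 43 of 6324 with 7 clusters. With the members in the clustering it was 30 of 6192, and without the 2% of wells 35 of 6221. DESeq2 called 49 of 955 genes, no filter 226 of 17449 and library size only 307 of 6500. HSPC-like cells there gave 1 with 1000 UMIs and 1 with no filter, beside 47 of 5572 and 307 of 18163 genes. The stages gave 21 by library size, all lower, beside 3573 of 10170 genes called in either direction. On control plates only, monocyte-like cells gave 14 and neutrophil-like cells 12, beside 5765 of 9694 and 5758 of 10696 genes. By library size on all plates, neutrophil-like cells gave 44, beside 9488 of 12315 genes. Erythrocyte-like against HSPC-like cells gave 5 with 1000 UMIs, 5 without the 2% of wells, 0 with DESeq2 and 7 by library size. Over all genes these were 2211 of 6965, 2079 of 6575, 1190 of 7302 and 2312 of 7302. psmd11a and psmd11b in neutrophil-like cells turned to -0.26 and -0.0083 by library size.

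Leaving out 1 plate gave 0 to 10 members under LY294002 in erythrocyte-like cells, 2 to 7 between stages, 23 to 31 in monocyte-like, 23 to 33 in neutrophil-like and 31 to 38 in EHT-like cells, and 5 to 14 in erythrocyte-like against HSPC-like cells. The other counts were 0 throughout.

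Log2 ratios of the summed share kept their sign throughout. Under LY294002 in HSPC-like cells of the CHT they moved to -0.52 with 1000 UMIs, -0.38 without mitochondrially encoded genes and -0.31 without the 50 genes with most UMIs. In erythrocyte-like cells they moved to -0.76 without the 2% of wells, -0.60 without 50 genes, -0.61 under 5% globin, -0.78 at 5 to 10% and -0.64 at 4000 to 8000 UMIs. The stages moved to -0.36 with 1000 UMIs, -0.37 without the wells and -0.43 without 50 genes, neutrophil-like and EHT-like cells to -0.53 and -0.76 without 50 genes, and erythrocyte-like against HSPC-like cells to 0.025 with 1000 UMIs and 0.038 without the wells. The cause of these moves was not tested.

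No HSPC-like class was found on the control and LY294002 plates of the CHT with 3000 UMIs, 7 clusters or the members in the clustering, and no myeloid-like class without the 2% of wells. Library size only and the globin and UMI bins were added after seeing the data. No paired analysis was possible because plate numbers within groups come from the order of the samples. With 2 plates a group in the CHT, and members of 10 CPM or less resting on few UMIs, small differences were not detectable at this depth.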
